A study of Mus musculus with 6 samples.

Results

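The constitutive genes of the proteasome were followed in E0771, a breast tumour line of the mouse, with 3 libraries of a vector control and 3 of cells expressing wild-type Malt1 (Malt1-WT), all in the basal condition. The product of Malt1 is a paracaspase that acts in NF-kB signalling both as scaffold and as protease. The members are the genes whose symbol is Psm, a letter from a to g and a number, without the immunoproteasome genes Psmb8, Psmb9, Psmb10, Psme1 and Psme2. This rule found 43 of the 55571 genes in the count table. The labels name neither the promoter that drives Malt1 nor the number of clones or cultures behind a group, so p-values measure only the spread between these libraries, which may be technical.

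The proteasome degrades proteins that carry ubiquitin chains. Its 20S core is a barrel of alpha rings, which gate entry, around beta rings, whose subunits Psmb5, Psmb6 and Psmb7 carry the proteolytic sites. The 19S cap sits on the barrel. Its base holds a ring of ATPases that unfold substrates, and its lid removes the ubiquitin. Interferon-induced cells exchange the 3 proteolytic subunits for Psmb8, Psmb9 and Psmb10. When proteasome activity falls short, the membrane-bound transcription factor NRF1 (gene Nfe2l1) is known to raise the expression of proteasome subunit genes as a group.

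Total counts per library ranged from 17601656 to 20543778. Malt1 itself had 517, 633 and 611 counts in the 3 control libraries and 5526, 6176 and 5087 after Malt1-WT expression, a log2 fold change of 3.34 (SE 0.042, edgeR quasi-likelihood adjusted p = 4.11e-50). Of 7 epithelial markers, 5 had at most 10 counts in every library, Krt18 and Cdh1 among them. The epithelial list summed to 73.3 to 77.5 CPM (counts scaled to a common library total) in the controls and 64.2 to 69.8 CPM in Malt1-WT. Most of that sum was Krt8, which was called lower (-0.20 on the log2 scale). The 8 fibroblast and mesenchymal markers summed to 3579 to 3731 CPM in the controls and 2170 to 2176 CPM in Malt1-WT, most of it Vim, which fell by 0.90 on the log2 scale. Of the 7 tested markers of that list, 4 were called lower: Vim, Col1a1 (-0.88), Col3a1 (-0.66) and Pdgfra (-0.48). Pdgfrb rose by 0.57, and Dcn (-0.09) and Lum (-0.15) did not pass. Of 10 leukocyte markers, Tyrobp had no count and Ptprc at most 3 in any library, while Adgre1 had 0 to 2 counts in the controls and 21 to 32 in Malt1-WT, Cd68 rose by 1.67 on the log2 scale (adjusted p = 8.5e-17) and Lyz2 fell by 2.33 (1.08e-09). The leukocyte list summed to 22.7 to 26.4 CPM in the controls and 28.4 to 32.3 CPM in Malt1-WT. Fcer1g, the largest part of the control sum, was called lower (mean 14.8 to 12.2 CPM, -0.28 on the log2 scale). The part of these markers in the proteasome results was not tested.

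Proteasome genes were well expressed and moved little. Of the 43 members, 40 were tested, with 165 to 13876 counts per library. The other 3 were not detectable at this depth beyond 1 count: Psma8, an alpha subunit of the testis, had 1 count in the vector control, Psmd10, a base chaperone, had 1 count in Malt1-WT, and Psmb11, the beta subunit of the thymus, had 0 in all 6 libraries. Every tested member had at least 10 counts in each library of both groups, so none passed the filter on low counts through 1 group alone. Fold changes are given as log2 of Malt1-WT over vector control, and levels as CPM scaled by TMM, a method that equalises libraries on the bulk of their genes (mean ± SD, n = 3). CPM scaled in this way are relative to the bulk of the genes of a library, so a change per cell and a change in total RNA per cell cannot be told apart.

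Of the 40 tested members, 26 were higher and 4 lower in Malt1-WT at an edgeR adjusted p under 0.05, and 10 did not pass. Among all 13594 tested genes, 61.2% passed, 31% higher and 30.2% lower. The members, 75% of which passed, were therefore called about as often as well-expressed genes at large, where 76.9% passed (genes with a mean log2 CPM of 5 or more, a level that 36 of the members reached), but mostly in 1 direction, since 38.1% of those genes were higher and 38.8% lower. The median log2 fold change of the tested members was 0.13, against -0.00286 over all tested genes. The groups of 3 libraries did not overlap for 28 members that were higher and 4 that were lower, where 64.4% of all tested genes did not overlap, 32.4% with Malt1-WT higher and 32% with it lower. Among the 6112 well-expressed genes, the groups did not overlap for 2375 with Malt1-WT higher and 2429 with it lower. Most changes were small. A difference of less than 1.2-fold was seen for 32 of the 40 members (80%), against 44.5% of all tested genes and 52.3% of the well-expressed ones, and no member reached 2-fold, against 13.2% and 8.03%. The calls of the small changes rested on the scaling. With library size only in place of TMM, the median of all genes moved to -0.08, and 16 members were higher and 7 lower. Of all tested genes 26.0% were then higher and 36.8% lower. The difference between the members' median and that of all genes was 0.133 under both scalings, by construction, since rescaling shifts all genes nearly alike. With library size only Psma1, Psma3, Psma4, Psmb5, Psmb6, Psmc1, Psmc3, Psmc4, Psmd7 and Psme3 lost their call. Psmb1, Psmd2 and Psmd13 were then called lower, and 6 uncalled members but no called one changed sign.

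**Figure D1:**
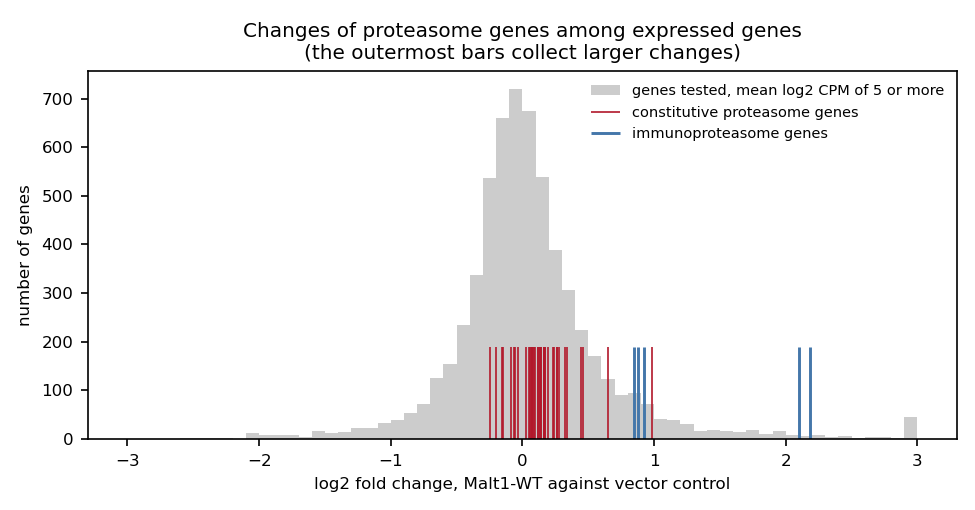
Number of genes (vertical axis) by log2 fold change of Malt1-WT against vector control (horizontal axis) for tested genes with a mean log2 CPM of 5 or more, with a line for each tested constitutive proteasome gene (red) and immunoproteasome gene (blue). The red lines crowd just above 0, with Psmd11 (0.65) and Psmd8 (0.99) apart from them, and the blue lines lie at 0.85 to 2.18.

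In a test against a 1.2-fold change, 6 of the 40 tested members passed as higher: Psmd8, Psmd11, Psma5, Psmg4, Psmd5 and Psmd3. Of all tested genes 19.3% passed that test as higher and 15.8% as lower, while no member passed as lower. All 6 were called higher under every scaling, tool and left-out library tried. For Psmd8, Psmd11, Psma5, Psmd5 and Psmd3 the adjusted p was at most 4.22e-08 in these fits. Several members that did not pass the 1.2-fold test, Psma6, Psmc6 and Psmd14 among them, also kept their call in these fits.

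**Figure D2:**
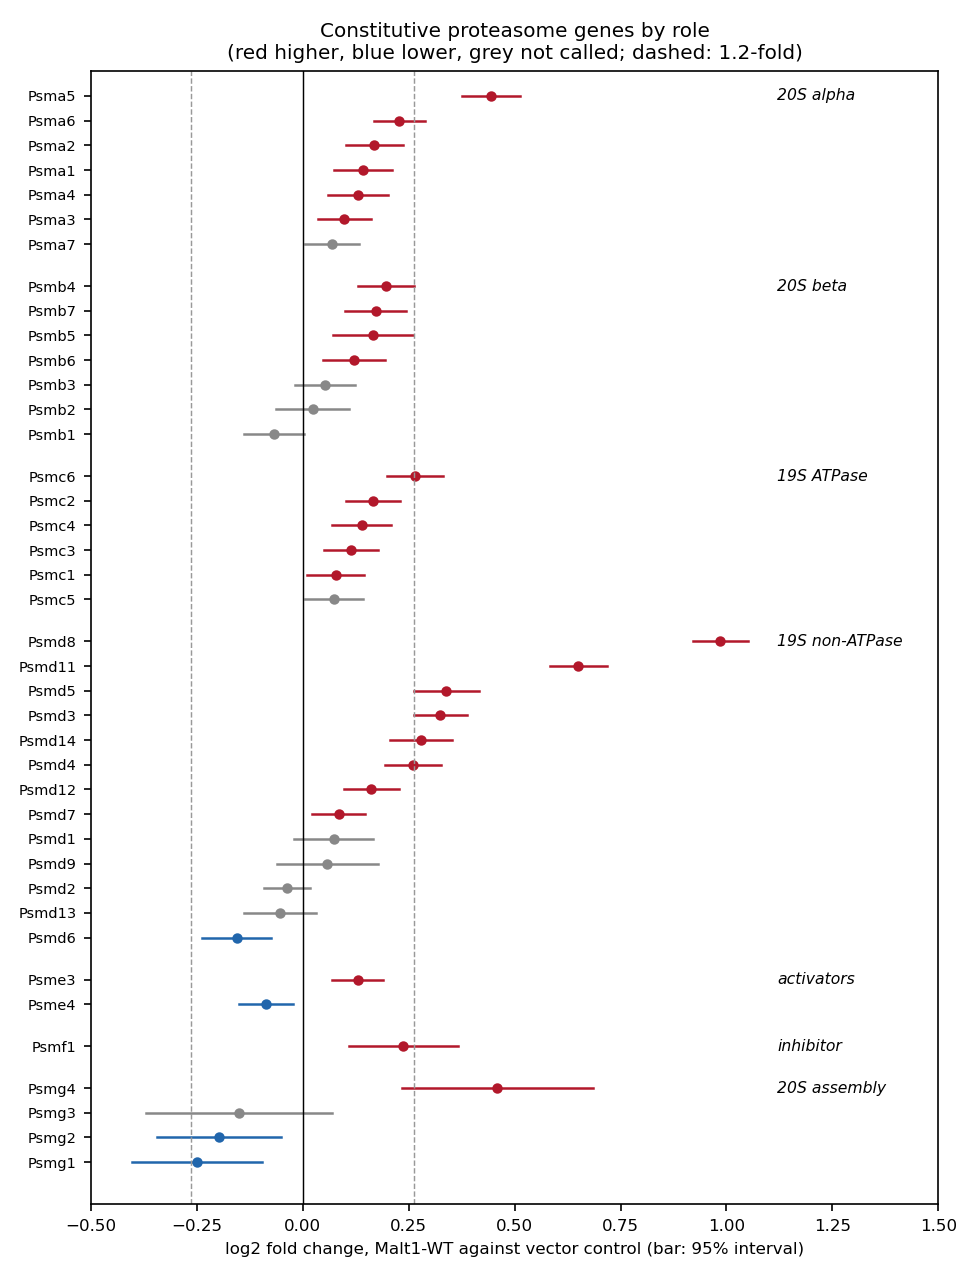
Log2 fold change of Malt1-WT against vector control (horizontal axis, point) with its 95% interval (bar) for the 40 tested constitutive proteasome genes, grouped by role (red higher, blue lower, grey not called, dashed lines at 1.2-fold). Psmd8 at 0.99 and Psmd11 at 0.65 stand to the right of the other members, and the points of the 7 tested beta subunits all lie within the dashed lines.

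Psmd8, a lid subunit that joins the lid last and locks its assembly, changed most. It measured 170, 182 and 179 CPM in vector control replicates 1 to 3 and 356, 351 and 346 CPM in Malt1-WT replicates 1 to 3. Each Malt1-WT library thus lay well above each control library. The log2 fold change was 0.99 (SE 0.032, 95% interval 0.92 to 1.05, edgeR adjusted p = 1.92e-31), a 1.98-fold difference. Psmd8 lies on chromosome 7 (29174188 to 29180701, minus strand, GRCm38), and the annotation shows no exon of another gene over its exons.

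Psmd11, a lid subunit that contacts the alpha ring and stabilises the attached cap, came next. Its levels were 154, 159 and 165 CPM in the controls and 247, 251 and 253 CPM in Malt1-WT, with no overlap between the groups. The log2 fold change was 0.65 (SE 0.034, 95% interval 0.58 to 0.72, edgeR adjusted p = 5.01e-23). Its interval does not reach that of Psmd8. Psmd11 lies on chromosome 11 (80428615 to 80473248, plus strand). A transcript annotated elsewhere, A730017L22Rik, matches 52.7% of the longest Psmd11 transcript at 97.9% identity and had 96 to 143 counts per library, so some reads may be shared.

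Among the 7 tested alpha subunits, 6 rose with TMM scaling and 3 with library size only, and Psma5 rose most. With TMM scaling 85.7% were thus called, all higher, where 76.9% of well-expressed genes were called and 38.1% were higher. With library size only, 26.0% of all tested genes were higher. Psma5 measured 195, 215 and 209 CPM in the controls and 281, 275 and 287 CPM in Malt1-WT. The groups did not overlap, and the log2 fold change was 0.44 (SE 0.034, edgeR adjusted p = 1.97e-16). Psma5 lies on chromosome 3 (108256926 to 108279974, plus strand), and its processed pseudogenes Gm8394 and Gm12989 had 16 to 43 counts per library. Of its exon bases, 4.5% lie over 1700010K24Rik on the other strand. Psma6 followed at 0.23 (274 ± 2.11 to 321 ± 4.68 CPM, adjusted p = 4.85e-09). The other risers, Psma2 (0.17), Psma1 (0.14), Psma4 (0.13) and Psma3 (0.10), changed by 7.03% to 12.4%. Psma3 lost its call without control replicate 1 (adjusted p = 0.0591) or Malt1-WT replicate 1 (0.0703). Psma7 was at 0.07 (95% interval 0.00 to 0.13) and missed the threshold at an adjusted p of 0.0573, although its 3 Malt1-WT libraries (295 to 300 CPM) lay above its 3 control libraries (272 to 293 CPM). Without vector control replicate 2 it passed (adjusted p = 0.0326).

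**Figure D3:**
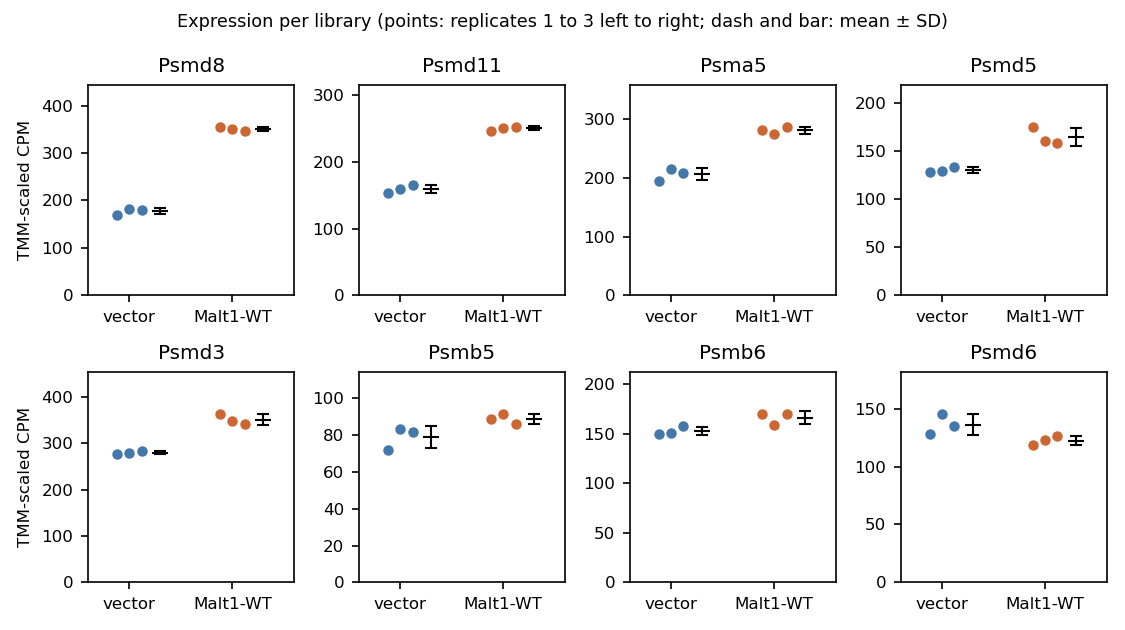
TMM-scaled CPM (vertical axes from 0) of 8 constitutive proteasome genes in each library of the vector control (blue) and Malt1-WT (orange), with mean ± SD beside the points (n = 3). The groups are apart for Psmd8, Psmd11, Psma5, Psmd5 and Psmd3, while those of Psmb5, Psmb6 and Psmd6 lie close together.

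The promoters of these 3 genes are shown because they rose most, next to those of the proteolytic subunits Psmb5 and Psmb6, which rose less. The windows of Psmb5 and Psmb6 are among the 5 member windows that hold a match to the antioxidant response element core that NRF1 binds. Each sequence covers the 250 bases before the RefSeq start (GRCm38.p6), written 5′ to 3′ on the strand of the gene, and capitals mark a match to TGACNNNGC or its reverse complement, or to CCAAT or its reverse complement. The windows are chr7:29180674-29180923 (minus) for Psmd8, chr11:80428365-80428614 (plus) for Psmd11, chr3:108256676-108256925 (plus) for Psma5, chr14:54617996-54618245 (minus) for Psmb5 and chr11:70525107-70525356 (plus) for Psmb6.
Psmd8: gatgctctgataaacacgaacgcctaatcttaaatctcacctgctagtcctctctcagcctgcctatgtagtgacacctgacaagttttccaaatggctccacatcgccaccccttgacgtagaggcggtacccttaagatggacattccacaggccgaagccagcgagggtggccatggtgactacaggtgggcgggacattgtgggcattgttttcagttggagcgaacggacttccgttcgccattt
Psmd11: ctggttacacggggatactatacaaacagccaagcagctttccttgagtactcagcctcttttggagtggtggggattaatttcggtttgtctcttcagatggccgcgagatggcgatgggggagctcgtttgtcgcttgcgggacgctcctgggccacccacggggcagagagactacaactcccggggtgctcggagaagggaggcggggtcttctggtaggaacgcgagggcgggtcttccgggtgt
Psma5: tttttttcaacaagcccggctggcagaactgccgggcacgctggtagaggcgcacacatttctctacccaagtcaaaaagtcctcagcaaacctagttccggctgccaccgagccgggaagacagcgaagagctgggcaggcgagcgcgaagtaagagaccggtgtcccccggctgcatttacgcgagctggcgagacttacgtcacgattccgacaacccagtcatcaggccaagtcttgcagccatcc
Psmb5: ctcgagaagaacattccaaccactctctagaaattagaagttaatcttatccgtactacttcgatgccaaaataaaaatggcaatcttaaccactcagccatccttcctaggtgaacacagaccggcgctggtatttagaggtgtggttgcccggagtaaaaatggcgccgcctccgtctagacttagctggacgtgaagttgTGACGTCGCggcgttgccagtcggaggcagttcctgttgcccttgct
Psmb6: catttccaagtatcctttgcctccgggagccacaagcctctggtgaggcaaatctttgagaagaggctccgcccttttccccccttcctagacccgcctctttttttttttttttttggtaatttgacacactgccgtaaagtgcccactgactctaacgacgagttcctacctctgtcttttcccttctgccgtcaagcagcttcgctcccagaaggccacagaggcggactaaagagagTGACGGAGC

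The match in Psmb5 begins 47 bases before the start and that in Psmb6 9 bases before it, while the windows of Psmd8, Psmd11 and Psma5 hold neither motif. RefSeq promoter entries matched 35 of the 43 members, with 37 windows. Entries for Psma8, Psmb1, Psmb2, Psmb7, Psmc3, Psmd3, Psmd7 and Psmg2 were not matched. TGACNNNGC was found in 5 of the 37 windows (13.5%) and in 10.2% of all 32851 windows of the table. Besides Psmb5 and Psmb6, the matches lay in Psmc6, the ATPase gene that rose most (log2 fold change 0.27), Psmd12 (0.16) and Psmd9 (0.06, not called). CCAAT was found in 35.1% of the member windows and in 33.8% of all windows. Both shares lie near that of all promoters, and a match is no evidence of binding.

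Of the 7 tested beta subunits, 4 rose with TMM scaling and 2 with library size only: Psmb4 (0.20), Psmb7 (0.17), Psmb5 (0.17) and Psmb6 (0.12), the last 2 of which lost their call with library size only. All 3 proteolytic subunits are among the 4. The share called with TMM scaling, 57.1%, all of it higher, lies below the 76.9% of well-expressed genes, of which 38.1% were higher. With library size only, 26.0% of all tested genes were higher. Psmb5, the chymotrypsin-like subunit, measured 72.0, 83.3 and 81.6 CPM in the controls and 88.5, 91.5 and 86.0 CPM in Malt1-WT. Its groups did not overlap (SE 0.047, edgeR adjusted p = 0.00196), but the call was lost without vector control replicate 1, the lowest library (log2 fold change 0.10, adjusted p = 0.0767). Psmb6, the caspase-like subunit, went from 150, 151 and 157 CPM to 170, 159 and 170 CPM (adjusted p = 0.00321). Psmb7, the trypsin-like subunit, went from 147, 154 and 157 CPM to 173, 166 and 177 CPM (adjusted p = 4.81e-05). In both genes every Malt1-WT library exceeded every control library, by a small margin for Psmb6. Of the exon bases of Psmb7, 11.8% lie over Nek6 on the other strand, and 12.1% of those of Psmb5 hold Mir686. Psmb4, a subunit without a proteolytic site, went from 270 ± 7.83 to 310 ± 14.2 CPM. The other 3 lack proteolytic sites as well and did not pass: Psmb3 at 0.05 (95% interval -0.02 to 0.12), Psmb2 at 0.02 (-0.06 to 0.11) and Psmb1 at -0.07 (-0.14 to 0.00). With upper quartile scaling Psmb1 was called lower (adjusted p = 0.0295), as it was without vector control replicate 1 (0.00927) and without Malt1-WT replicate 1 (0.0186).

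These small differences were set against the inducible subunits that take the same places in the core. Psmb8, Psmb9 and Psmb10 rose by 0.92, 2.18 and 2.10 on the log2 scale. The ratio of Psmb5 to Psmb8 in Malt1-WT was 59.4% of its mean in the vector control (59.0%, 62.8% and 56.6% in the 3 libraries, against 94.1%, 105% and 101% in the vector control). The ratio of Psmb6 to Psmb9 was 24.0% of the control mean (24.1%, 23.2% and 24.7%, against 91.4%, 105% and 104%), and that of Psmb7 to Psmb10 26.3% (25.5%, 25.7% and 27.8%, against 99.6%, 99.8% and 101%). The 2 groups of libraries did not overlap for any of the 3 pairs. An exact two-sided permutation test over libraries gave p = 0.1 for each pair and 0.1 after adjustment over the 3, which is the smallest p that 3 against 3 allows. The numerators Psmb5, Psmb6 and Psmb7 themselves were 12.2%, 8.79% and 12.6% higher in Malt1-WT. Counts of Psmb8 and Psmb9 may include reads of genes that overlap them on the other strand (14.7% and 5.8% of their exon bases).

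**Figure D4:**
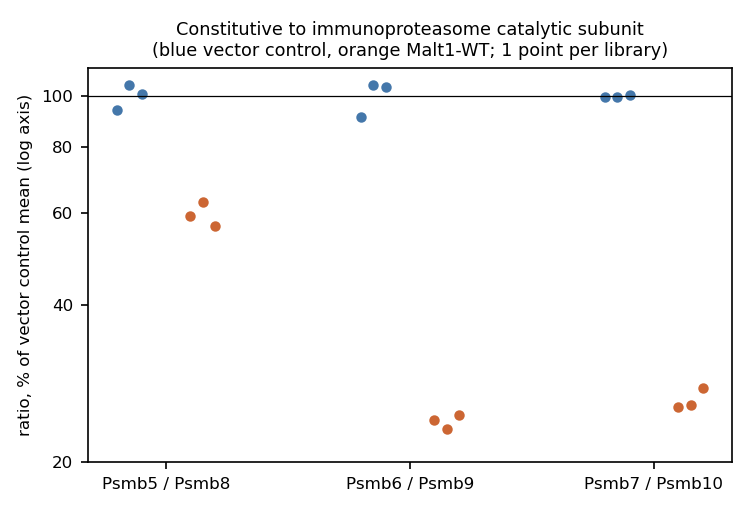
Ratio of each constitutive proteolytic subunit to the inducible subunit of the same site, in percent of its vector control mean (vertical log axis), with 1 point per library. Malt1-WT libraries (orange) sit near 59.4% for Psmb5 to Psmb8, 24.0% for Psmb6 to Psmb9 and 26.3% for Psmb7 to Psmb10, all below the vector control libraries (blue).

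The ATPases of the 19S base form a ring of 6 different subunits, of which 5 rose with TMM scaling and 2 with library size only. That is 83.3% called with TMM scaling, all higher, against 76.9% called and 38.1% higher among well-expressed genes. With library size only, 26.0% of all tested genes were higher. Psmc6 rose most, from 197, 197 and 193 CPM to 238, 227 and 240 CPM (log2 fold change 0.27, SE 0.033, edgeR adjusted p = 8.59e-10), with the groups apart. Psmc2 (0.17), Psmc4 (0.14) and Psmc3 (0.11) rose by 8.25% to 12.1%. Psmc1 was at 0.08 with an adjusted p of 0.0389 and lost its call under 11 of 14 alternatives, among them DESeq2 (0.0684) and the left-out vector control replicates 1, 2 and 3 (0.241, 0.0604 and 0.0508), so it is not a firm member of the 5. Psmc5 was at 0.07 (95% interval 0.01 to 0.14, adjusted p = 0.0552) and passed without vector control replicate 2 (0.0175) or Malt1-WT replicate 2 (0.0426). Ordered by fold change, each ATPase had a 95% interval that overlapped that of the next.

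The non-ATPase subunits of the 19S cap spanned the widest range of fold changes, from -0.16 to 0.99. Of 13 tested, 8 rose, 1 fell and 4 did not pass. The share called, 69.2%, is below the 76.9% of well-expressed genes, while 61.5% were higher against 38.1% of those genes. The 8 lid subunits among the members held 6 of the risers. After Psmd8 and Psmd11 came Psmd3 (0.32, from 280 ± 3.01 to 350 ± 11.6 CPM, edgeR adjusted p = 3.06e-13) and Psmd14 (0.28, from 128 ± 1.61 to 156 ± 5.24 CPM, adjusted p = 3.5e-09), the deubiquitinase of the lid. Psmd12 was at 0.16 and Psmd7, the partner of Psmd14, at 0.08 (adjusted p = 0.0154). Psmd7 was not called with upper quartile scaling (0.0553), with library size only, without the filter on low counts (0.0921), or without vector control replicate 1 (0.0989), Malt1-WT replicate 1 (0.095) or Malt1-WT replicate 3 (0.0517). Psmd6 was the lid member that fell, from 128, 145 and 135 CPM to 118, 123 and 126 CPM (log2 fold change -0.16, SE 0.040, adjusted p = 7.52e-04), with the groups close but apart. Psmd13 was at -0.05 (95% interval -0.14 to 0.03) and did not pass, though its 3 Malt1-WT libraries lay below the control libraries, and 10.1% of its exon bases lie over Sirt3 on the other strand.

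The base also holds members that are no ATPases. Psmd2, the large docking subunit and the highest of all members, measured 651, 675 and 690 CPM in the controls and 648, 660 and 657 CPM in Malt1-WT. The groups overlapped, and the log2 fold change of -0.04 (95% interval -0.09 to 0.02, adjusted p = 0.242) did not pass except without vector control replicate 1 (0.0413) and with library size only. The other base scaffold gene, Psmd1, was at 0.07 (-0.02 to 0.17). The ubiquitin receptor gene Psmd4 rose by 0.26 (236 ± 7.27 to 282 ± 9.2 CPM, adjusted p = 1.12e-09). Psmd5, a chaperone that holds the base before assembly, rose by 0.34, from 128, 130 and 134 CPM to 176, 161 and 159 CPM (adjusted p = 5.75e-11), while Psmd9, another base chaperone, was at 0.06 (-0.06 to 0.18), with 25.5% of its exon bases over Gm26745 on the other strand.

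The smaller letter groups did not move in 1 direction. Psme3, which encodes a nuclear cap that works without ATP, rose by 0.13 (320, 317 and 323 CPM to 361, 348 and 341 CPM, edgeR adjusted p = 2.19e-04), but not with library size only (0.119). Psme4, which encodes another cap, fell by 0.09 on the log2 scale (264, 275 and 274 CPM to 248, 255 and 262 CPM, adjusted p = 0.0162), a call lost without vector control replicate 2 (0.0513), vector control replicate 3 (0.0623) or Malt1-WT replicate 1 (0.057). Psmf1, which encodes a proteasome-binding protein first described as an inhibitor, rose by 0.24 (adjusted p = 0.00114), from 38.2, 40.2 and 39.4 CPM to 49.9, 40.4 and 49.1 CPM. Malt1-WT replicate 2 was barely above the highest control library.

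Genes of the PAC chaperones, which assemble the alpha ring in pairs, split. Psmg1 fell from 27.9, 30.9 and 24.9 CPM to 23.2, 23.6 and 23.6 CPM (-0.25, SE 0.076, edgeR adjusted p = 0.00394) and its partner Psmg2 from 31.3, 35.2 and 31.0 CPM to 31.9, 26.9 and 26.3 CPM (-0.20, adjusted p = 0.0163). For Psmg2 the groups overlap, since Malt1-WT replicate 1 lay above control replicates 1 and 3. Without vector control replicate 2, the highest library for both, neither was called (adjusted p = 0.0769 and 0.128), and Psmg2 was also lost in DESeq2 (0.0504), without Malt1-WT replicate 2 (0.0775) and without Malt1-WT replicate 3 (0.0928). Of the other pair, Psmg4 rose from 9.33, 8.84 and 8.21 CPM to 12.9, 12.5 and 10.8 CPM (0.46, SE 0.11, adjusted p = 3.85e-04) and Psmg3 was at -0.15 (95% interval -0.37 to 0.07). These are the least expressed of the tested members, and their intervals are the widest.

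Summed over the members of a group, the alpha subunits held 1591 ± 33.2 CPM in the controls and 1803 ± 28.8 CPM in Malt1-WT, a difference of 13.4%. The beta subunits differed by 7.05% (1125 ± 37.8 to 1204 ± 34.1 CPM) and the ATPases by 10.1% (1302 ± 21.6 to 1433 ± 23.7 CPM). The non-ATPase subunits differed by 17.5% (2611 ± 53.5 to 3068 ± 36.8 CPM), or by 8.46% without Psmd8 and Psmd11. All 43 members together took 0.753% of the counts of the vector control and 0.8% of those of Malt1-WT. With library size only, the differences were 7.53% for alpha, 1.54% for beta, 4.4% for ATPase and 11.4% for non-ATPase subunits. No test was made of these sums.

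Per kilobase of exon, a scale on which genes of unequal length can be compared, the subunits of a ring were not at equal levels. The ranges here are over tested members and leave out Psma8, Psmb11 and Psmd10. In the vector control the alpha subunits ranged from 222 ± 1.71 CPM per kilobase for Psma6 to 47.8 ± 0.91 for Psma2, a 4.65-fold range. The beta subunits ranged 3.1-fold, from Psmb4 (138 ± 4.02) to Psmb7 (44.6 ± 1.56), and the ATPases 3.46-fold, from Psmc5 (155 ± 5.83) to Psmc2 (45.0 ± 1.13). The non-ATPase group ranged 29.2-fold, from Psmd2 (166 ± 4.86) down to the chaperone Psmd9 (5.69 ± 0.124), with Psmd1, the other base scaffold, second from the end (10.1 ± 0.416). Psmd8 moved from rank 5 of that group in the vector control (57.9 ± 2.03) to rank 3 in Malt1-WT (115 ± 1.64), past Psmd12 and Psmd4. These levels divide by all annotated exon bases of a gene, which overstates the length of genes with rarely used exons. With the longest transcript instead, the 4 ranges were 4.37-fold, 4.26-fold, 2.38-fold and 14.3-fold, and Psmd8 went from rank 7 to rank 3.

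**Figure D5:**
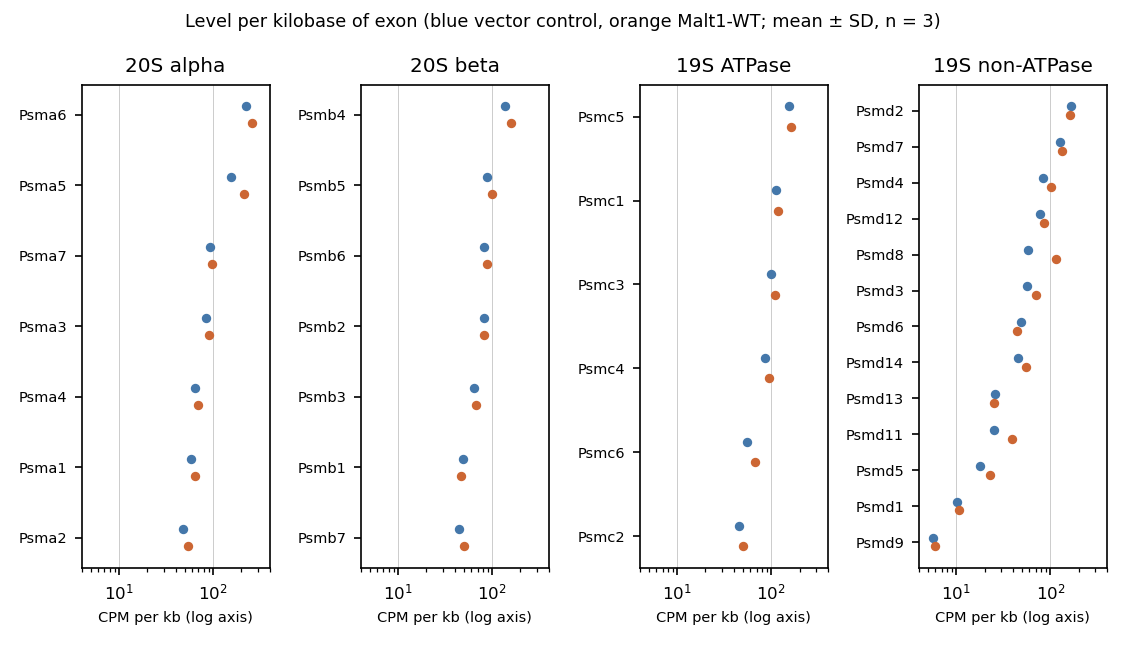
CPM per kilobase of annotated exon (horizontal log axis, mean ± SD, n = 3) of the tested 20S and 19S members in the vector control (blue) and Malt1-WT (orange), ordered by the vector control level, with SD bars smaller than the points. The pairs of points stay close for nearly every subunit, and the widest gap is that of Psmd8 (57.9 against 115).

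Partner genes whose symbols fall outside the rule had log2 fold changes of -0.25 to 0.36. Of 10 in the table, 6 rose (60%) and 2 fell (20%), with a median of 0.14. The share called, 80%, is near the 76.9% of well-expressed genes, of which 38.1% were higher and 38.8% lower. Pomp, the maturation factor of the core, rose by 0.36 (131 ± 4.89 to 169 ± 2.8 CPM, edgeR adjusted p = 1.56e-12) and Ecpas, which encodes an adaptor that clamps cap and core together, by 0.28. Adrm1, a ubiquitin receptor of the cap, rose by 0.17, Usp14, a deubiquitinase bound to the cap, by 0.10 (not called with library size only, adjusted p = 0.514), Txnl1 by 0.19 and Zfand5 by 0.26. Sem1, a small lid subunit whose symbol the rule does not take, fell by 0.16 on the log2 scale and Akirin2, which carries proteasomes into the nucleus, by 0.25. Ube3c was at 0.06, and Uchl5 at 0.04 with 2 to 14 counts per library.

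Of 8 tested genes for NRF1, related factors and their partners, 6 rose, with a median of 0.62. The share called in either direction, 75%, is near the 76.9% of well-expressed genes. All of these calls were higher and 0 lower, where 38.1% of well-expressed genes were higher and 38.8% lower. Nfe2l1, which encodes NRF1, measured 270, 262 and 274 CPM in the controls and 500, 512 and 499 CPM in Malt1-WT with no overlap (log2 fold change 0.91, SE 0.030, edgeR adjusted p = 1.77e-31). Nfe2l2, which encodes the related factor NRF2, rose by 0.45, its inhibitor gene Keap1 by 0.25, and the small Maf partner genes Maff, Mafk and Mafg by 2.01, 0.87 and 0.80. The protease gene Ddi2 and the glycanase gene Ngly1, whose products process NRF1, were at -0.01 (95% interval -0.10 to 0.07) and -0.04 (-0.24 to 0.16). Nfe2l3 had at most 10 counts in any library and was not tested. NRF1 activity rests on processing of the protein, which RNA counts do not measure.

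Of 14 genes that supply ubiquitin or deliver substrates, 6 were higher (42.9%) and 4 lower (28.6%), with a median of 0.02. These shares are near those of all tested genes (31% and 30.2%) and of well-expressed ones (38.1% and 38.8%). Nploc4, which encodes a cofactor of the unfolding ATPase Vcp, rose by 0.34, whereas the shuttle receptor gene Ubqln4 fell by 0.35 on the log2 scale. Ufd1, whose product pairs with that of Nploc4, rose by 0.33.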

How the data were processed

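RNA of 6 libraries of E0771 cells was sequenced, 3 with the vector control and 3 with Malt1-WT, grouped by their labels. Per the submitters' processing notes, the tools were Trim Galore 0.6.0, STAR 2.7.3a and featureCounts 1.6.3, and the build was GRCm38.p6 (mm10). The annotation and strand option of featureCounts, both not given in the sources used here, decide how reads of overlapping genes were assigned, so such reads may be shared. The deposited table holds raw counts per gene for 55571 genes, and the counts were used as deposited.

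From the counts, edgeR 4.0.16 in R 4.3.3 was run with TMM scaling, genes kept by filterByExpr at a minimum count of 10 (13594 tested), glmQLFit and glmQLFTest, and Benjamini-Hochberg adjustment over all tested genes at a threshold of 0.05. Intervals are 95% intervals of the log2 fold change. A test against a 1.2-fold change (glmTreat), DESeq2 1.42.0, limma-voom (limma 3.58.1), other scalings, no filter, each library left out and a replicate block were alternatives. The members and gene lists were chosen with earlier results of these data known. Any member could be named, those with the largest change in each role with full values, and of other lists the partners, regulators and immunoproteasome genes, and up to 4 called genes with the largest absolute change. One gene that this rule would name is not reported here.

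The same table holds the authors' own comparison, with no tool named. The log2 fold changes in the authors' deposited table differ from those of edgeR by at most 0.0234 over the tested members. Per the file headers it also gives a mean log2 expression, a t score and p-values. In the authors' deposited table the t score is listed at 0 and the adjusted p-value at 1 for all 43 members, and neither was used. Gene positions and exon lengths are from GENCODE M21 (GRCm38), and promoter sequences from RefSeq (GRCm38.p6). Near copies were transcripts with at least 95% identity over at least 50% of the longest transcript.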

Additional observations from a re-analysis of the deposited data

How the results depend on the processing

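Across 14 alternatives for each of the 40 tested members, 483 of the values kept their direction and side of the threshold, 59 lost their call, 10 gained one and 8 changed sign; 7 members kept both in all 14. RLE scaling, limma-voom, DESeq2 (25 higher and 3 lower), no filter (24 and 4) and upper quartile scaling (24 and 5) left the counts of members near 26 higher and 4 lower, and the replicate block gave 25 and 4. Same-numbered libraries did not deviate together (correlations -0.026, -0.021 and 0.017), so the numbers were not taken to pair the libraries.

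With library size only, the median of all genes moved to -0.08 and that of the members to 0.0537; 16 members were higher and 7 lower. By role, 3 alpha, 2 beta, 2 ATPase and 0 activator genes were then higher, and 1 beta (also with upper quartile scaling) and 3 non-ATPase genes lower. Among all tested genes, 26.0% were higher and 36.8% lower with library size only. With library size only or no filter, 1 CCT gene was higher. The summed CPM then differed by 6.42% for all members, 7.53% for alpha, 1.54% for beta, 4.4% for ATPase, 11.4% for non-ATPase (16% with upper quartile scaling) and -2.86% for activator genes. The log2 fold changes that changed sign were those of Psma7 (-0.008), Psmb2 (-0.0527), Psmb3 (-0.0236), Psmc5 (-0.0023), Psmd1 (-0.0028), Psmd9 (-0.0178), Uchl5 (-0.0398) and Ube3c (-0.0169), none of them called in either fit. Library size only leaves out the TMM factor by construction.

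The test against a 1.2-fold change asks for a larger effect and left 6 members higher and 0 lower (0 at an unadjusted p under 0.05 in edgeR): 1 alpha, 4 non-ATPase, 1 assembly, 0 beta, 0 ATPase, 0 activator and 0 inhibitor genes higher. Of the other lists, it left 1 partner gene higher and 0 lower, 3 ubiquitin supply genes higher and 1 lower, 0 COP9 genes lower, and 0 CCT genes higher and 0 lower. Among all tested genes, 19.3% passed the 1.2-fold test as higher and 15.8% as lower. DESeq2 called 1 assembly gene lower, and the cause was not tested. Leaving out 1 library at a time gave 22 to 27 members higher and 1 to 6 lower, with 0 to 1 beta, 1 to 2 non-ATPase, 0 to 1 activator and 0 to 2 assembly genes lower and 1 to 2 CCT genes higher; the 1 lower member came without vector control replicate 2. It also gave ranges that cross 0 for Psmb2 (-0.0131 to 0.0544), Uchl5 (-0.4472 to 0.5144), Ddi2 (-0.0509 to 0.0133) and Ngly1 (-0.1204 to 0.0655), none of them called. Per kilobase of the longest transcript, the ranges were 4.37-fold for alpha, 4.26-fold for beta, 2.38-fold for ATPase and 14.3-fold for non-ATPase genes. Leaving out Psmd8, Psmd11 and Psma5, chosen after seeing the data, left 23 of 37 members higher, 4 lower and a median of 0.12.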

Other observations

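The lid of the 19S cap shares its architecture with the COP9 signalosome, which removes NEDD8 from cullin ligases. Of the 10 COP9 genes in the list, 9 were tested, 7 fell and 2 did not pass, with a median log2 fold change of -0.14. The share called, 77.8%, is near the 76.9% of well-expressed genes, of which 38.8% were lower. The 2 that did not pass lay below the mean log2 CPM of 5 that defines those genes (0.47 and 3.59), as did Cops8 (3.99). The other tested COP9 genes reached that level and were all called lower. In edgeR, DESeq2 and limma-voom 0 COP9 genes rose (0 also at an unadjusted p under 0.05), and DESeq2 called 5 lower. In the edgeR test against a 1.2-fold change 0 were lower, and 0 at an unadjusted p under 0.05. Among the called genes, the 4 with the largest change were Cops3 (-0.28, edgeR adjusted p = 1.05e-06), Cops8 (-0.24, 0.0199), Gps1 (-0.24, 2.15e-07) and Cops2 (-0.23, 2.35e-08). Cops8 was not called in DESeq2, without vector control replicate 2 or without Malt1-WT replicate 1. Gps1 shares 70.7% of its longest transcript with Gm9816, which had 25 to 47 counts per library. Cops5, the catalytic subunit, was at 0.34 and did not pass (adjusted p = 0.389). Of the 8 lid members of the proteasome 6 were higher and 1 lower, and Sem1, a lid gene outside the rule, was also lower. The difference between the lists was not tested.

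The CCT chaperonin, another large ring that folds actin and tubulin, had 2 genes higher, 3 lower and 3 not called of 8, with a median of 0.01. The share called, 62.5%, is near the 61.2% of all tested genes but below the 76.9% of well-expressed genes, among which all 8 fall. Only 1 was higher with library size only, without the filter, without vector control replicate 2 and without Malt1-WT replicate 1. Tcp1 rose by 0.18, and Cct8, Cct6a and Cct5 were at -0.16, -0.11 and -0.10, all called lower.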
